A study of Mus musculus with 6 samples.

Results

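Tuft cells are chemosensory cells of the gut epithelium, yet RNA of cells sorted as tuft cells held transcripts of signaling genes best known from white blood cells. The 9 genes described here are Ptprc, Lyn, Matk, Bmx, Ptpn6, Inpp5d, Vav1, Fyb and Rac2. They were taken from a list of kinase, phosphatase and adaptor genes of the leukocyte type together with Ptprc, the gene of the pan-leukocyte surface phosphatase CD45, and all 9 were found among the 23420 genes of the table. The study's single group holds 6 libraries, whose labels name a different mouse replicate of C57BL/6J background for each. All animals carried the Gfi1b-eGFP reporter, in which green fluorescent protein is made from 1 allele of the transcription factor gene Gfi1b, and the study used mice between 6 and 12 weeks of age. Cells of the ileum were sorted as GFP-positive, EpCam-positive, CD45-negative and propidium iodide-negative, so cells with CD45 protein on their surface had been gated away. There was no treatment and no second group. Values are TPM, the share of all transcripts that a gene takes after correction for its length. They keep no record of how many reads were sequenced, so depth is unknown here and no counting error or detection limit can be given. Per library, 13044 to 13308 genes were above 0, and the ribosomal RNA precursor Rn45s took 23.1% to 32.6% of the TPM. Of 14 tuft cell markers, all 14 were above 0 in all 6 libraries, with summed levels of 7546 to 12459 TPM, and so were all 7 epithelial markers.

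In blood cells these genes form a chain that starts below antigen, Fc and integrin receptors. Src family kinases such as Lyn phosphorylate receptor tails, Csk family kinases such as Matk restrain them, and CD45 removes the inhibitory phosphate that Csk family kinases add. The Tec family kinase Bmx and the exchange factor Vav1 act further down, Vav1 loads the GTPase Rac2, which drives actin remodeling and the phagocyte oxidase, and Fyb (ADAP) links the chain to integrins. Ptpn6 (SHP-1) and Inpp5d (SHIP-1) are its brakes, the first a tyrosine phosphatase and the second a phosphatase of the lipid PIP3.

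The DNA just upstream of these genes is shown for the most abundant member and for the 2 members whose printable window held an ETS-type letter string. ETS factors include PU.1, which is a main regulator of blood cell genes. RefSeq windows on GRCm38.p6 were found for 7 of the 9 members (9 windows, each the 250 bases before an annotated start). The string GGAAGT, on either strand, was present for 4 of the 7 members, namely Ptprc, Ptpn6, Inpp5d and Vav1, and in 19.7% of all 32851 windows. The octamer ATGCAAAT, the letters read by POU factors such as the tuft cell regulator Pou2f3, was present for 0 of the 7 members and in 1.60% of all windows. These matches are letters in a window and say nothing of binding. Members are counted by gene and the percentages by window, and a gene can have several windows, so these shares are not in like units. The windows of Ptprc and Ptpn6 overlap annotated exons and are not shown. Capitals mark GGAAGT. The sequences run 5′ to 3′ on the strand of the gene, for Vav1 at chr17:57278850-57279099 (plus strand), for Inpp5d at chr1:87620062-87620311 (plus strand) and for Matk, which has no match, at chr10:81252685-81252934 (plus strand).
Vav1: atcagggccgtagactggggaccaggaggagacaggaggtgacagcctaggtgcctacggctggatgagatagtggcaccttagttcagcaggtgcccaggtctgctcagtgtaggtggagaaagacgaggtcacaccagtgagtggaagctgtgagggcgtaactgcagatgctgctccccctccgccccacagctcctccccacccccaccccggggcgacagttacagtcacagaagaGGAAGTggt
Inpp5d: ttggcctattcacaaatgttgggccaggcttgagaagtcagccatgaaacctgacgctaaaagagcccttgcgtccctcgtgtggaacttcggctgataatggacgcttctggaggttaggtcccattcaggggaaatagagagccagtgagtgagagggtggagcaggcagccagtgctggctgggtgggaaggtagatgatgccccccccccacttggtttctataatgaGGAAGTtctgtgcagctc
Matk: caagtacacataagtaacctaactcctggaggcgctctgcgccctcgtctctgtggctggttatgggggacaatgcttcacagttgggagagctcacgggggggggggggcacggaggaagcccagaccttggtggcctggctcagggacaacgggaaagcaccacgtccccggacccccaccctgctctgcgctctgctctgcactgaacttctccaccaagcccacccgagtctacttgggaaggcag

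Transcripts of all 9 genes were listed at middle to high levels in every library. Among genes above 0 in a library, the lowest member, Lyn, lay between the 84.8th and 91.7th percentiles, and the highest, Matk, between the 99.6th and 99.9th. The median of the 9 means was 368 TPM, against 10.8 TPM over the 13422 genes above 0 in at least 3 libraries. By mean level, Matk was the 24th most abundant gene of the table, Ptpn6 the 82nd and Rac2 the 203rd.

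Of the phosphatases, Ptprc averaged 112 ± 42.0 TPM (SD, n = 6). From replicate 1 through replicate 6 its values were 170.85, 156.31, 84.51, 110.48, 77.39 and 74.23 TPM. Its level was thus 2.30 times higher in replicate 1 than in replicate 6, and no library was near 0 although CD45-positive cells had been sorted out. Ptpn6 ran from 872 to 1266 TPM with a median of 1063 TPM (mean 1069 ± 168, SD, n = 6). Inpp5d ran from 144 to 242 TPM with a median of 188 TPM (mean 190.5 ± 35.03, SD, n = 6). Both inhibitory phosphatases were above Ptprc in all 6 libraries.

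Of the member kinases, Matk was by far the most abundant, at 1464 to 3273 TPM with a median of 2498 TPM (mean 2419 ± 613, SD, n = 6). Replicate 3 was lowest and replicate 1 highest. Bmx ran from 149.8 to 274 TPM with a median of 177 TPM (mean 189.5 ± 45.3, SD, n = 6). Lyn was the lowest member, at 53.4 to 105 TPM with a median of 67.0 TPM (mean 72.2 ± 19.3, SD, n = 6). Matk, whose product restrains Src family enzymes, was therefore listed at 1464 TPM or more in each library, and Lyn at no more than 105 TPM. Lyn is not the whole Src family, so these levels do not compare Matk with that family.

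Of the adaptor and GTPase genes, Vav1 ran from 281 to 481 TPM with a median of 354 TPM (mean 368 ± 76.8, SD, n = 6). Fyb was the steadiest member, at 327 to 436 TPM with a median of 377 TPM (mean 382 ± 41.2, SD, n = 6). Rac2 ran from 380.5 to 1003 TPM with a median of 496 TPM (mean 598 ± 243, SD, n = 6) and was the member with the widest spread. Replicates 1 and 2 were its highest libraries, at 1003 and 785 TPM, and the other 4 lay between 380.5 and 499 TPM.

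**Figure D1:**
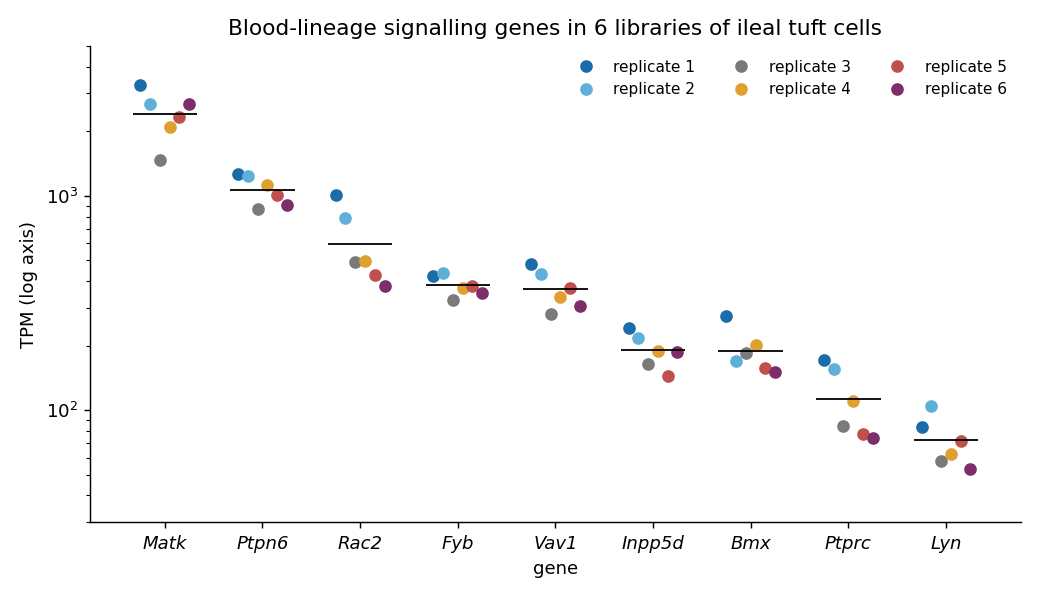
TPM of the 9 genes (log axis) in each of the 6 libraries, with genes ordered by mean and a line at each mean. Matk, at 1464 to 3273 TPM, lies above all other members in every library, and Lyn, at 53.4 to 105 TPM, is lowest.

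In order of mean level, the genes were Matk, Ptpn6, Rac2, Fyb, Vav1, Inpp5d, Bmx, Ptprc and Lyn. Neighbors in this order were compared within each library on the log2(TPM + 1) scale, as a description and with no test because the values set the order. Matk exceeded Ptpn6 by 1.15 ± 0.30 and Vav1 exceeded Inpp5d by 0.94 ± 0.24 (SD, n = 6), each in 6 of 6 libraries and with ranges that did not overlap. Ptpn6 exceeded Rac2 by 0.91 ± 0.37 and Rac2 exceeded Fyb by 0.56 ± 0.43, also in 6 of 6 libraries. Fyb and Vav1 differed by 0.07 ± 0.15, and Inpp5d and Bmx by 0.02 ± 0.24 (SD, n = 6). Neither of these last differences was larger than its spread between libraries.

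Of the 8 genes compared with Ptprc, 7 were above it and 1, Lyn, was below it. Each gene of the table was tested for its difference from Ptprc in the same library with limma, a moderated linear model, and p-values were adjusted over all 13421 genes tested. At an adjusted p under 0.05, 5.26% of all genes tested were above Ptprc and 90.2% were below it. The members were chosen with earlier results of these data known, and the p-values take no account of that choice. Matk was the farthest above, at 17.1 to 36.0 times Ptprc (log2 difference 4.45, SE 0.23, adjusted p = 1.04e-12). Ptpn6 was 7.41 to 12.97 times Ptprc (log2 difference 3.30, SE 0.20, adjusted p = 9.10e-12). Rac2 kept the steadiest ratio to Ptprc, at 4.52 to 5.87 times (log2 difference 2.39, SE 0.18, adjusted p = 2.27e-10). Fyb (log2 difference 1.83) and Vav1 (1.76) were above Ptprc by about the same amount, with adjusted p = 2.32e-08 and 2.41e-08. Inpp5d was 1.38 to 2.52 times Ptprc (log2 difference 0.82, SE 0.18, adjusted p = 0.000345) and Bmx 1.09 to 2.18 times (log2 difference 0.80, SE 0.19, adjusted p = 0.000514). Lyn was 0.487 to 0.923 times Ptprc, lower in 6 of 6 libraries (log2 difference -0.59, SE 0.20, adjusted p = 0.00817). Without replicate 4, the adjusted p of Lyn was 0.0401.

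A second comparison set each gene beside a relative of the same protein family, which in most pairs serves many tissues. In 8 of 8 pairs the member was the more abundant, in 6 of 6 libraries each. The pairs were chosen with earlier results of these data known, so this count is a description only. The p-values take no account of that choice. Adjusted p-values (limma, over all genes tested against the same relative) were at most 8.60e-06. With 6 libraries the exact sign-flip permutation test cannot go below p = 0.03125, and it gave that value before adjustment for each pair. Fyb has no such relative in the comparison.

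The phosphatase pairs differed most in size. Ptpn6 was 74.5 to 237 times Ptpn11 (SHP-2), which was at 4.75 to 12.2 TPM, a log2 difference of 6.94 ± 0.55 (SD, n = 6), and 43.1% of all genes were above Ptpn11. Inpp5d was 3.43 to 6.28 times Inppl1 (SHIP-2), which was at 30.1 to 55.3 TPM, a log2 difference of 2.15 ± 0.34, and 12.6% of all genes were above Inppl1. Ptprc was 1.82 to 3.26 times Ptprj (CD148), another receptor phosphatase that can activate Src family kinases, at 33.9 to 74.0 TPM. This log2 difference of 1.17 ± 0.28 was the smallest of the pairs, and 11.3% of all genes were above Ptprj.

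Among the kinases, Matk was 11.7 to 21.1 times Csk, which was itself abundant at 117 to 168 TPM, a log2 difference of 4.05 ± 0.36 (SD, n = 6), and 4.35% of all genes were above Csk. Bmx was 4.20 to 9.61 times Tec, at 21.0 to 40.6 TPM, a log2 difference of 2.52 ± 0.46, and 17.1% of all genes were above Tec. Lyn was 3.41 to 5.83 times Src, at 13.7 to 20.7 TPM, a log2 difference of 2.02 ± 0.29, and 27.9% of all genes were above Src. The fitted differences of the kinase pairs thus ran from 4.06-fold for Lyn to 16.5-fold for Matk.

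Vav1 was 40.6 to 279 times Vav2, which was at 1.33 to 7.51 TPM, a log2 difference of 6.29 ± 0.74 (SD, n = 6), and 55.4% of all genes were above Vav2. Rac2 was 3.85 to 24.4 times Rac1, a log2 difference of 3.57 ± 0.91, and 10.4% of all genes were above Rac1. Replicate 3 stood apart in this pair, with Rac1 at 127.8 TPM against 30.4 to 43.6 TPM in the other 5 libraries, and Rac2 was 3.85 times Rac1 there and at least 9.69 times elsewhere. Without replicate 3 the log2 difference was 3.89 (adjusted p = 1.04e-08, limma).

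**Figure D2:**
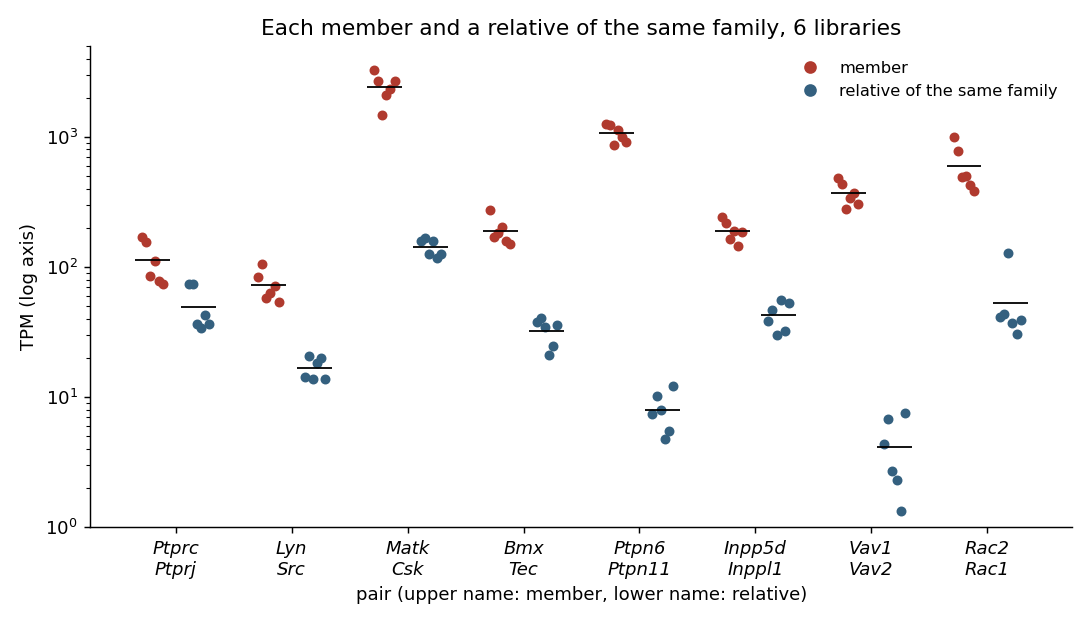
TPM (log axis) of each member (red) and its relative (blue) in the 6 libraries, with a line at each mean. The red points lie above the blue points of the same pair throughout, by the most for Ptpn6 with Ptpn11 and Vav1 with Vav2.

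The wider chain was read from 6 lists of kinases, phosphatases, phosphoinositide enzymes, adaptors and cytoskeletal regulators. Without the 9 members these hold 71 genes of the table. Of the 63 that were tested, 10 were above Ptprc and 53 below it, so 15.9% were above it, against 5.26% of all genes tested. The lists were chosen with earlier results of these data known, so these shares are a description only. Of the 71, 36 did not reach 10 TPM in any library. The median of the 71 means, untested genes included, was 4.63 TPM.

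Among the Src family and related kinases, Frk, at 15.1 to 26.9 TPM, and Src lay below Lyn, while the T cell kinase Lck ran from 0.73 to 16.5 TPM and Fgr from 3.27 to 7.87 TPM. Blk and Srms were listed at 0 in all 6 libraries. Among Csk, Syk and Tec family kinases, the 2 that act after Src family kinases in antigen receptor signaling were low. Syk was at 1.41 to 23.2 TPM, and Zap70 was above 0 in 2 libraries, at up to 4.83 TPM. The B cell kinase Btk did not exceed 1.33 TPM.

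Of the other phosphatases, Ptpn18 was at 804 to 1362 TPM, a range that overlaps that of Ptpn6. Of the phosphoinositide enzymes, 3 non-members were above Ptprc. Pik3r5 and Pik3cg, the regulatory and catalytic subunits of the G protein-activated PI3-kinase gamma of leukocytes, were at 436 to 743 TPM and 156 to 256.4 TPM. Plcg2, the phospholipase C gamma of B and myeloid cells, was at 217 to 374 TPM.

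Of 21 adaptor genes found, Sh2d7 was at 549 to 1051 TPM and Skap2, a partner of Fyb in myeloid cells, at 277 to 580.5 TPM, both above Ptprc. The B cell adaptor Blnk, at 48.6 to 104 TPM, was the only other non-member of the list above 25 TPM in any library. The 2 adaptors at the center of T cell receptor signaling were low, with Lat at 0 to 5.97 TPM and Lcp2 (SLP-76) at 0 to 2.33 TPM. In the Vav and Rac module, the GTPase genes Cdc42, at 187 to 428 TPM, and Rhog, at 120 to 388 TPM, were above Ptprc. Of its 18 non-members, 15 of 17 tested were below Ptprc, a share near the 90.2% of all genes tested. The list also holds the leukocyte genes Dock2, an activator of Rac, at 0 to 0.56 TPM, and Coro1a, an actin-binding protein, at 0 to 13.7 TPM.

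**Figure D3:**
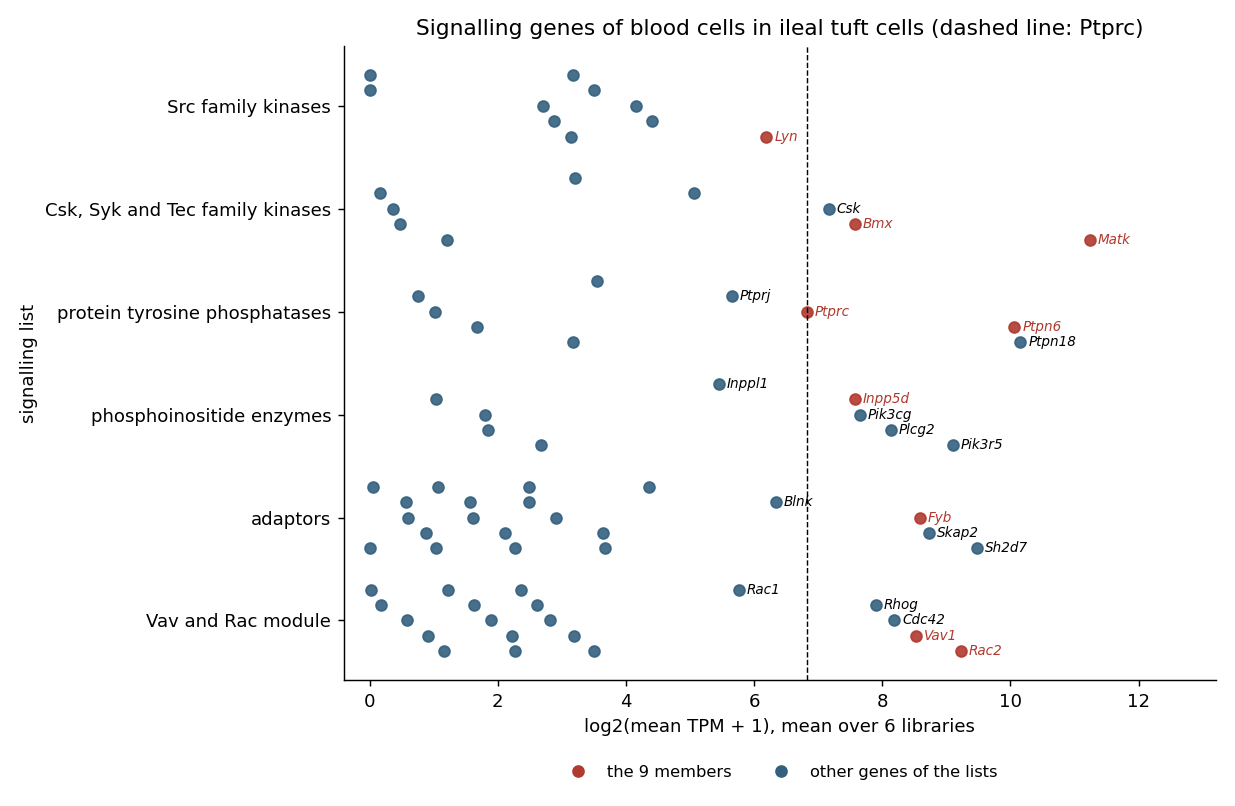
Mean level over 6 libraries, as log2(mean TPM + 1), of genes in 6 signaling lists, with the 9 members in red and the level of Ptprc as a dashed line. The named blue points right of the line are 9 of the 10 non-members called above Ptprc, and Ptpn18, at 804 to 1362 TPM, is the highest of those 9.

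Markers of leukocytes were mostly low, and those of T cells were ordered across libraries unlike the TPM of the members. Of 25 T cell and intraepithelial lymphocyte markers, 22 were found and 11 were above 0 in all libraries, and all 16 that were tested were below Ptprc, as were 90.2% of all genes tested. These calls are over all 6 libraries and do not hold in each one. The summed level of the list was 56.8, 134.5, 113, 159.8, 421 and 483 TPM in replicates 1 to 6, above Ptprc in replicates 3 to 6. Its most abundant genes were Ccl5, at 9.29 to 158 TPM, and the granzyme gene Gzma, at 10.4 to 158 TPM. In replicates 5 and 6, Ccl5 was at 158 and 150 TPM and Gzma at 141 and 158 TPM, above Ptprc at 77.39 and 74.23 TPM. The library with the most Ptprc, replicate 1, thus had the lowest summed level of the list. Replicates 5 and 6 had the highest summed levels and the least Ptprc. The T cell receptor chain genes Cd3d, Cd3e and Cd3g were at 0.98 to 4.16, 1.5 to 11.6 and 0 to 13.1 TPM. Ptprc was 3.08 to 22.6 times their sum. How much of the Ptprc transcript came from lymphocytes was not tested.

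Of 9 B and plasma cell markers found, Ms4a1 was at 0 in all libraries, Cd79a did not exceed 1.99 TPM, and the list summed to 1.07 to 39.9 TPM, mainly Igj. Of 15 myeloid markers, Itgam was at 10.96 to 20.7 TPM, Csf1r at 0 to 4.36 TPM and Emr1 at 0 to 1.13 TPM, and the list summed to 30.1 to 66.0 TPM. The innate lymphoid list summed to 7.66 to 31.6 TPM, and Il7r was at 0 in all libraries. Of the mast cell list, the growth factor receptor gene Kit was at 100.2 to 157.5 TPM, while Cpa3, Fcer1a and Mcpt2 were each above 0 in 1 library and Mcpt1 in 4, at up to 10.9 TPM.

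Gfi1b is also a gene of red cell and platelet precursors, and hemoglobin transcripts did differ between libraries. Hba-a1 was at 669, 950.0, 34.97, 1.61, 166.9 and 23.1 TPM in replicates 1 to 6. Replicates 1 and 2, where most members were highest, were thus also the libraries with the most hemoglobin transcript. Hbb-b1 was at 0 to 143 TPM, and the hemoglobin genes Hbb-b2 and Hba-a2 reached 66.6 and 21.4 TPM. Of the markers of that lineage other than hemoglobin, Gp9 and Ppbp were at 0 in all libraries, Pf4 was above 0 in 1 library, Itga2b was above 0 in 1, at 1.13 TPM, and Alas2 reached 9.05 TPM. Without replicates 1 and 2, the same 7 genes were above Ptprc and Lyn was below it, and all 8 genes were above their relatives. Replicate 5, with Hba-a1 at 166.9 TPM, was kept in that fit. An order of genes within a library does not show which cells the transcripts came from. The part of hemoglobin-containing cells in the levels of the members was not tested.

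**Figure D4:**
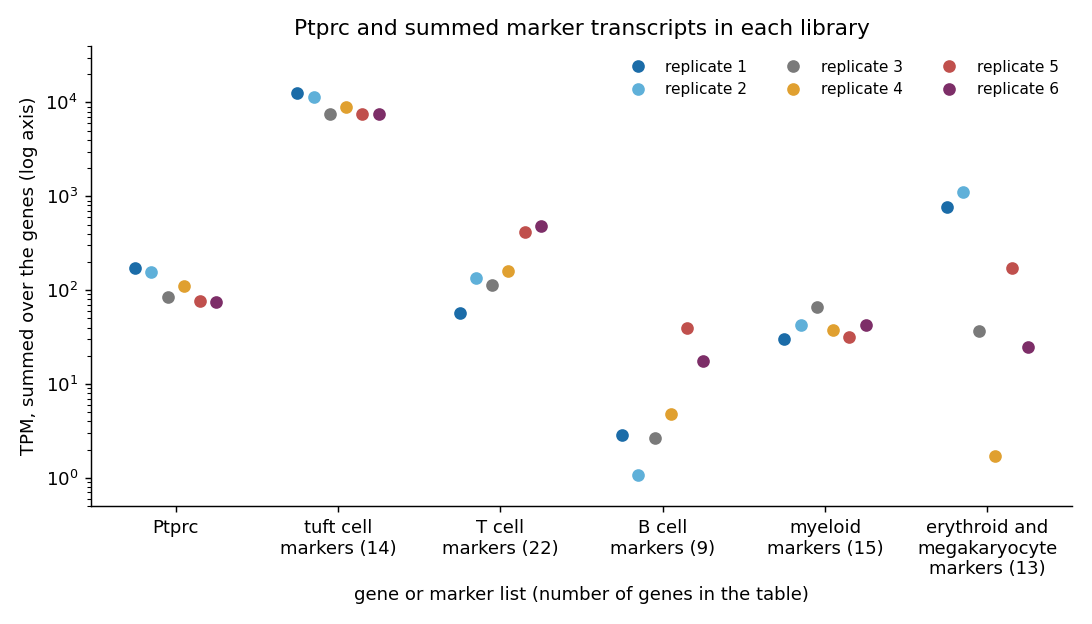
TPM of Ptprc and summed TPM of 5 marker lists (log axis) in each library. Ptprc and the tuft cell markers are highest in replicates 1 and 2, the T cell markers in replicates 5 and 6, at 421 and 483 TPM, and the erythroid and megakaryocyte markers in replicates 1 and 2.

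The members were highest in the libraries where the tuft cell markers were highest, and the epithelial markers were highest there too. The summed epithelial markers were at 33370, 31586, 24272, 21983, 20534 and 20648 TPM in replicates 1 to 6. For 8 of the 9 members, and for 10 of the 14 tuft cell markers, replicates 1 and 2 were the 2 highest libraries, as they were for 14.4% of the 13422 genes above 0 in at least 3 libraries. The exception among members was Bmx, which was highest in replicates 1 and 4. Between the lowest and the highest library, members differed 1.33-fold for Fyb to 2.64-fold for Rac2. Relative to the mean log2 level of the 14 tuft cell markers in the same library, the members differed 1.22-fold for Ptpn6 to 1.71-fold for Matk, and the spread was smaller for 8 of the 9 members (all but Fyb). Ptprc went from 2.30-fold to 1.47-fold. The share of all genes whose spread became smaller in this way was not computed, so the count does not set the members apart. The coefficient of variation was 10.8% to 40.7% over the members with a median of 23.9%, against a median of 24.5% over the 1463 genes with a mean at least that of Lyn, so the members were about as variable as other genes of their level. In sorted bulk RNA, a larger share of tuft cells and more transcript per tuft cell cannot be told apart. Rn45s took 25.1, 24.8, 23.1, 26.7, 32.6 and 32.2% of the TPM in replicates 1 to 6. TPM of all other genes falls where Rn45s takes more, and its part in the order of libraries was not tested.

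The 9 genes lie at separate places in the genome (GRCm38, GENCODE M21). Ptprc and Inpp5d are on chromosome 1, from 138062861 to 138175708 on the minus strand and from 87620312 to 87720507 on the plus strand. Fyb (6522853 to 6663313, plus) and Rac2 (78559167 to 78572783, minus) are on chromosome 15. Matk is on chromosome 10 (81252935 to 81263365, plus), Ptpn6 on chromosome 6 (124720707 to 124738714, minus), Vav1 on chromosome 17 (57279100 to 57328031, plus), Lyn on chromosome 4 (3678115 to 3813122, plus) and Bmx on chromosome X (164192842 to 164258193, minus). Because reads that align to several genes are divided by estimate, the share of 25-base windows that a member has in common with other annotated genes was counted. It was under 1% for Ptprc, Matk, Bmx, Inpp5d and Vav1, 5.07% for Rac2, 6.04% for Ptpn6, 11.5% for Fyb and 24.99% for Lyn. Of the 1016 common windows of Lyn, 757 were common with Gm11787, and all 177 of Ptpn6 were common with Gm20531. Neither Gm11787 nor Gm20531 is among the genes of the table, so these shares do not measure reads divided between listed genes. With its relative, Rac2 had 0.161% of windows in common, and the other 7 members compared had 0%. Windows that the relatives have in common with further genes were not counted. Annotated antisense genes overlap Lyn, Ptpn6 and Fyb, and reads of these cannot be told apart from those of the member where strand is not recorded. Lyn, with the largest share of common windows, is reported as uncertain in level.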

How the data were processed

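RNA of sorted ileal tuft cells was prepared by the authors with a modified SMART-Seq2 protocol. The sample labels also name 3' polyA and droplet preparations. Paired-end reads were aligned with Bowtie to the UCSC mm10 transcriptome (1 mismatch, at most 15 alignments), and the authors deposited gene TPM from RSEM. A filter on genes is not given in the sources used here. RSEM divides shared reads by estimate, and TPM falls for all genes where Rn45s takes more. TPM is no count, so no count model was run.

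Columns were matched to replicates by number. Values were used as log2(TPM + 1), which compresses low values. Each gene above 0 in at least 3 libraries (all 9 members were) was tested for its within-library difference from Ptprc or from a relative with limma 3.58.1 in R 4.3.3 (trend, two-sided, Benjamini-Hochberg over all genes tested, 0.05). The fit was tested on simulated data. The p-values rest on the spread between these 6 libraries, with the variance of each gene moderated toward that of genes of similar level. In the fits against Vav2 and Rac1 with all 6 libraries, the variance came from genes of similar level. Those p-values thus do not measure the pair's own spread. They do not measure a bias in TPM that differs between 2 genes and is alike in every library. Values used Python 3.11.15 with pandas 2.3.3. Named genes are the 9 members, 8 relatives, at most 4 of the most abundant genes of each list and defining markers. Other genes, such as Blk, Srms, Lck, Fgr, Zap70, Syk, Btk, Lat, Lcp2, Dock2, Coro1a, Blnk, Gp9, Ppbp, Hbb-b2 and Hba-a2, were named after their values were seen. Some genes counted in the lists are not reported here by name or drawn. Members, lists and pairs were chosen with earlier results of these data known. Alternatives without replicates 1 and 2 or 5 and 6 were added after the data were seen.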

Additional observations from a re-analysis of the deposited data

Results flagged for a closer look

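Of 47 measures screened (members, relatives, their log2 differences and summed marker lists), 2 had 1 library farther from its nearest neighbor than Dixon's 95% critical value for 6 libraries, and chance gives about 2.35. Rac1 was at 127.82 TPM in replicate 3 and at most 43.6 TPM elsewhere (ratio 0.865), and its mean without that library was 38.3 TPM. The summed myeloid markers were at 65.98 TPM in replicate 3 and at most 42.7 TPM elsewhere (ratio 0.649). The cause was not tested.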

How the results depend on the processing

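All 8 genes compared with Ptprc and all 8 compared with a relative kept their direction under every alternative run. These were a pseudocount of 0.1, no filter, a minimum mean of 1 TPM, both rescalings, the exact sign-flip test, leaving out each library, and leaving out replicates 1 and 2 or 5 and 6. Rescaling acts alike on both genes of a library, so a kept order under it shows no stability. The only lost call was Vav1 against Vav2 under the exact sign-flip permutation test, with adjusted p = 0.0506 and a difference of 6.29. The adjustment there depends on how many other genes reach the smallest p, 0.03125. That test left 7 pairs called. Without 1 library each, the difference of Lyn from Ptprc lay between -0.68 and -0.50, with an adjusted p (limma) of at most 0.0401. Rescaling without Rn45s and Gm20594 raised the mean TPM of all 9 members by more than 1 SD, as it raises every value. Replicates form 1 group, so no paired analysis was possible because there is no second group. As TPM keeps no depth, zeros of low genes such as Zap70 or Ms4a1 cannot be set against a detection limit.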
